A study of Mus musculus with 6 samples.

Results

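This report covers 10 genes of bile acid and bile lipid transport in biliary epithelial cells, the cells that line the bile ducts. The genes were chosen by name, and each was found once among the 21700 genes of the deposited table: Slc10a2, Slc51a, Slc51b, Abcc2, Abcc3, Abcc4, Abcb4, Abcb11, Abcg2 and Gpbar1. The RNA came from livers of female wild-type C57BL/6 mice, either non-pregnant (3 libraries) or pregnant at dpc8, that is 8 days post coitum (3 libraries). No transgene, deletion or drug is named for either group. Per the labels' protocols, hepatocytes were spun out of digested livers and the biliary cells were then sorted by flow cytometry. The sources used here give neither the antibodies of the sort nor the age of the mice. Whether each library is its own animal is not stated, so the p-values speak for the spread among these libraries alone, part of which may be technical.

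Bile acids are made from cholesterol in hepatocytes and pumped into the canaliculi, from which bile runs through the ducts. Biliary cells can take conjugated bile acids back up at the surface that faces the duct and release them at the opposite surface, the cholehepatic shunt. Bile acids are also signals, sensed inside cells by the nuclear receptor FXR and at the membrane by TGR5. Of the genes described here, Slc10a2 encodes the apical sodium-dependent uptake transporter ASBT. Slc51a and Slc51b encode the subunits of the basolateral exporter OSTα-OSTβ, which works only as the pair. Abcc3 and Abcc4 encode the conjugate pumps MRP3 and MRP4, both basolateral in hepatocytes. Abcc2 encodes MRP2, an apical pump for conjugated bilirubin and glutathione conjugates. Abcb11 and Abcb4 encode the bile salt export pump and the phospholipid floppase MDR2 of the hepatocyte canaliculus. Abcg2 encodes BCRP, an apical pump for sulphated conjugates and many drugs, and Gpbar1 encodes TGR5.

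The bases before the transcription start are shown for 4 of these genes, for their place among the levels and log2 changes found: Abcc4 with the second highest level, Slc10a2 with the largest log2 change among the tested members, and Slc51a and Slc51b as partners that were both close to 0. The sequences are from RefSeq on GRCm38.p6, where 9 of the 10 genes were matched by symbol and Abcc3 was not. They run 5′ to 3′ on the minus strand, are cut where the GENCODE gene begins, and span chr14:118706220-118706469, chr8:5105352-5105537, chr16:32487880-32488129 and chr9:65422956-65423023. Capitals mark the motifs searched, on both strands, and positions count from the RefSeq start.
Abcc4: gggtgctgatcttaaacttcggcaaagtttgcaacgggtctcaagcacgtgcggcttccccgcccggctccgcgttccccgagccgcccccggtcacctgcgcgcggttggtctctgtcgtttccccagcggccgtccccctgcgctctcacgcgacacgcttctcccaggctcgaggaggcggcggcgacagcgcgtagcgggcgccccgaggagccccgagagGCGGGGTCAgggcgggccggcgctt
Slc10a2: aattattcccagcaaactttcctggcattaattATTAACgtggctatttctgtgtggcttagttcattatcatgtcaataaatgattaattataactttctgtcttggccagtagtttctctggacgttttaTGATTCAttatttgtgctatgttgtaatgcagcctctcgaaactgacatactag
Slc51a: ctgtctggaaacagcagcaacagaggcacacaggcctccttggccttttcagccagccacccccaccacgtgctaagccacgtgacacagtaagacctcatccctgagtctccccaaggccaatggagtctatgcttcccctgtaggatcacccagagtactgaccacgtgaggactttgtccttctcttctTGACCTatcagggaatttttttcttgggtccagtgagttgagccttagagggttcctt
Slc51b: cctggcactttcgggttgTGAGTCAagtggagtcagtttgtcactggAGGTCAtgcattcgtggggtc
The motifs were an inverted repeat bound by FXR (AGGTCANTGACCT), its half-site (AGGTCA), the LRH-1 site (CAAGGTCA, which contains the half-site), a half-site of HNF1 (GTTAAT), the AP-1 site (TGANTCA), the antioxidant response core bound by NRF2 (TGACNNNGC) and the TATA box (TATAAA). In the 250 bases before each start, Slc10a2 held the HNF1 half-site, present in 6.43% of 32851 promoters, 217 bases before the start. It also held the AP-1 site 118 bases before the start, a motif found in 6.75% of promoters and also in Slc51b. Slc51a and Slc51b each held 1 FXR half-site (14.0% of promoters), as did Abcb11 and Abcc2, and the Abcg2 promoters held the half-site and the LRH-1 site. Abcc2 and Abcc4 held the NRF2 core, present in 10.2% of promoters. No member promoter held the TATA box (12.4%) or the full FXR repeat, which these exact letters gave in 0.00609% of all promoters. These matches are a description of letters and not of binding.

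The libraries held between 24448312 and 34285323 fragments, recovered from the deposited values, which are FPKM (fragments per kilobase of exon, corrected for depth). FPKM allows levels of different genes to be set side by side, since it divides by gene length. All 17 listed biliary genes had a mean of at least 1 FPKM, as had 13 of 16 hepatocyte and 10 of 12 macrophage markers. The biliary genes summed to 6760 to 8566 FPKM outside pregnancy and 9115 to 9650 FPKM in pregnancy, most of it Spp1. Spp1 (osteopontin) stood at 4567 ± 632 FPKM outside pregnancy and 5711 ± 209 FPKM at dpc8 (SD, n = 3 each), Krt18 at 877 ± 43.3 and 971 ± 65.1 FPKM, Sox9 at 287 ± 17.0 and 302 ± 26.5 FPKM, Krt19 at 281 ± 58.6 and 369 ± 22.6 FPKM, Krt7 at 25.01 ± 5.46 and 26.9 ± 4.21 FPKM, and the adhesion molecule Epcam at 183 ± 1.16 and 192 ± 2.54 FPKM. Markers of other liver cells were unequal between libraries. The 10 endothelial markers summed to 252 FPKM in non-pregnant library 2, against 35.5 and 18.0 FPKM in the other non-pregnant libraries and 19.1 to 28.5 FPKM in the pregnant ones. The 12 macrophage markers summed to 57.3 to 90.8 FPKM outside pregnancy against 110 to 183 FPKM in pregnancy. Of the 10 that were tested 3 passed, against 0.0876% of all tested genes in either direction. All 3 were higher in pregnancy (Cd5l, C1qa and C1qc; limma adjusted p = 0.0357 each). Of the 10, 8 were higher without overlap, against 9.9% of all tested genes. No gene passed limma's test with no filter on low values, or when a single library was left out that was either number 1 of a group, number 3 outside pregnancy or number 2 in pregnancy (857 to 2258 genes at an unadjusted p under 0.05 in these fits). Cd5l, a protein secreted by macrophages, stood at 0.918 ± 0.521 and 14.7 ± 5.40 FPKM (SD, n = 3 each), and C1qa and C1qc, which encode chains of complement C1q, rose 14.3-fold and 15.8-fold in mean FPKM. Clec4f, a lectin of Kupffer cells, stood at 0.962 ± 0.615 and 12.7 ± 6.19 FPKM (limma adjusted p = 0.0854). Most of the sum outside pregnancy came from Cd68 (38.1 ± 2.16 and 38.9 ± 1.43 FPKM) and Csf1r (32.5 ± 12.4 and 34.7 ± 4.17 FPKM), whose groups overlapped. The part of macrophage RNA in the comparisons of the transporters was not tested. The 16 hepatocyte markers summed to 2473 to 3100 FPKM and 2414 to 2737 FPKM, nearly all of it Alb (albumin, 2327 ± 310 and 2147 ± 110 FPKM, SD, n = 3 each) and Ttr. The 10 stellate cell and fibroblast markers summed to 37.4 to 44.0 FPKM. The 6 lymphocyte markers summed to 1.56 to 2.09 FPKM outside pregnancy against 2.75 to 3.05 FPKM in pregnancy. Most of it was Cd79a (1.71 ± 0.299 and 2.38 ± 0.194 FPKM, SD, n = 3 each). No listed marker in the table was at 0 in all 6 libraries.

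**Figure D1:**
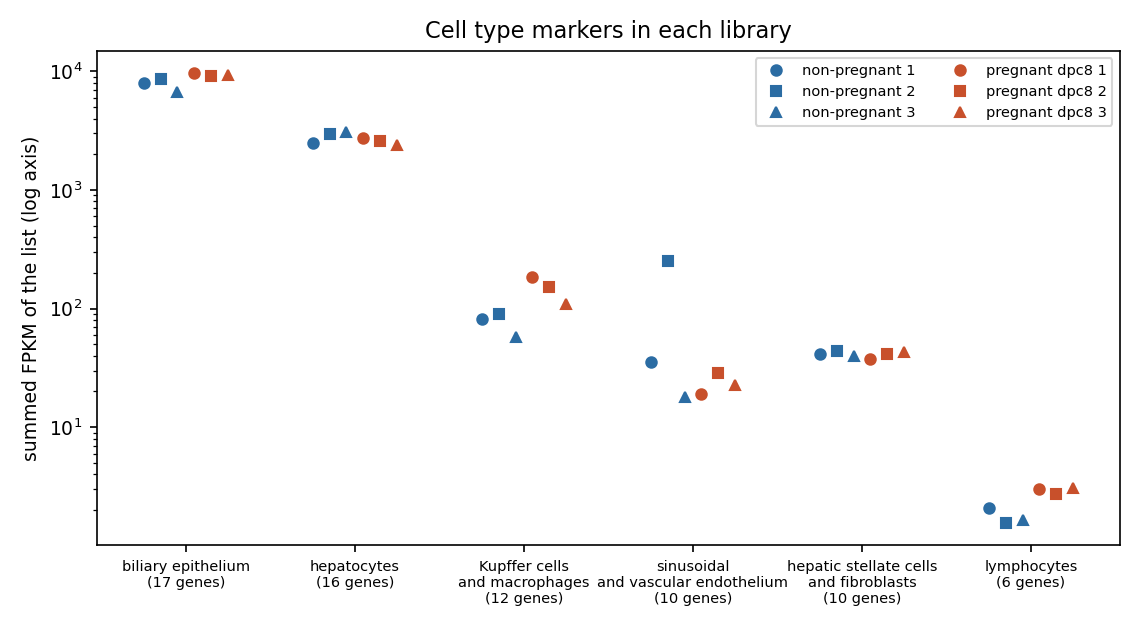
Summed FPKM (log axis) of 6 marker lists in each of the 6 libraries, blue for non-pregnant and orange for pregnant, with the number of genes in the table under each list. Non-pregnant library 2 stands at 252 FPKM in the endothelial list. The pregnant libraries lie above the non-pregnant ones in the macrophage, biliary and lymphocyte lists.

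One pump dominated the summed transcripts of the 10 genes, and the partner genes of the best known basolateral bile acid exporter were hardly detected. Abcc3 averaged 85.9 FPKM over the 6 libraries, above 98.4% of all genes in the table. It supplied 80.8% to 84.0% of the summed FPKM of the 10 genes in non-pregnant and 74.7% to 77.8% in pregnant libraries. Abcc4 followed at 12.3 FPKM, above 80.6% of all genes. Slc10a2 (3.76 FPKM), Abcg2 (3.05 FPKM) and Abcc2 (1.55 FPKM) came next, and these 5 passed the filter for testing, a mean of at least 1 FPKM. The other 5 did not: Abcb4 averaged 0.587 FPKM, Gpbar1 0.407 FPKM, Abcb11 0.190 FPKM, Slc51b 0.109 FPKM and Slc51a 0.0234 FPKM. Over the 6 libraries the ranges of Abcc3 (71.5 to 105 FPKM) and Abcc4 (7.46 to 15.2 FPKM) did not meet, nor did those of Abcc4 and Slc10a2 (2.22 to 5.92 FPKM). Slc10a2 and Abcg2 (2.40 to 3.45 FPKM) overlapped in range over the 6 libraries. Slc10a2 lay above Abcg2 in 5 of the 6, all but non-pregnant library 3, and in the pregnant group the ranges did not meet (3.88 to 5.92 against 3.11 to 3.45 FPKM). Abcb4 (0.499 to 0.793 FPKM) and Gpbar1 (0.185 to 0.919 FPKM) also overlapped, with Abcb4 above in 5 of the 6.

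**Figure D2:**
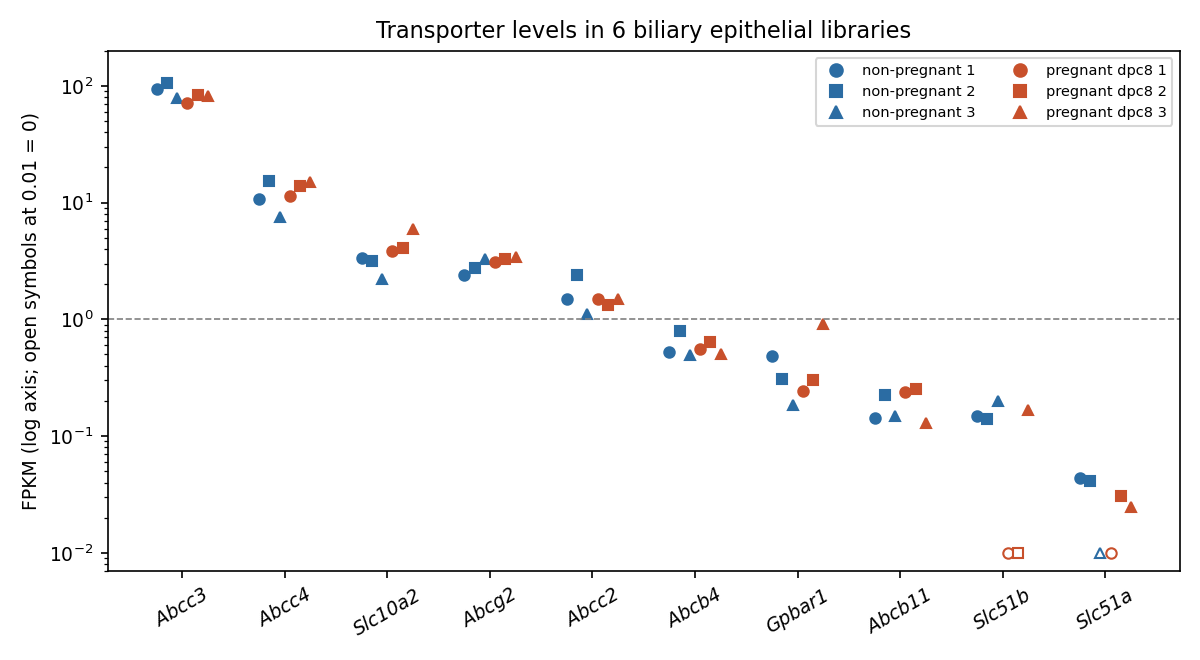
FPKM (log axis) of the 10 genes in each of the 6 libraries, blue for non-pregnant and orange for pregnant, in order of their mean, with open symbols at the bottom for values of 0. The dashed line is the filter of 1 FPKM. Abcc3 lies between 71.5 and 105 FPKM, and Slc51a and Slc51b hold the values of 0.

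In pregnancy none of the transporters passed the test over all genes, while the uptake transporter Slc10a2 was higher in every pregnant library than in any non-pregnant one. The test was limma on log2(FPKM + 1) with p-values adjusted by the Benjamini-Hochberg method over 11412 genes. At an adjusted p under 0.05 it called 0 of the 5 tested transporters and 0.0876% of all tested genes (10 genes). At an unadjusted p under 0.05 it held 1 of the 5, Slc10a2, against 13.4% of all tested genes. Of the 5, 3 lay above 0 and 2 below, with a median log2 change of 0.17, against -0.02 over all tested genes. Groups did not overlap for 1 of the 5, Slc10a2, against 22.1% of all tested genes in either direction and 9.9% in the upward one, so these counts do not set the transporters apart. In bulk samples fewer cells of a type and less RNA per cell cannot be told apart.

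Slc10a2 (ENSMUSG00000023073, chr8:5083219-5105351, minus strand, mm10) stood at 3.35, 3.14 and 2.22 FPKM in non-pregnant libraries 1 to 3. In pregnant libraries 1 to 3 it stood at 3.88, 4.06 and 5.92 FPKM. The lowest pregnant library lay above the highest non-pregnant one, and the extremes were non-pregnant library 3 and pregnant library 3. The group means were 2.90 ± 0.598 and 4.62 ± 1.13 FPKM (SD, n = 3 each), a 1.59-fold difference. The log2 change was 0.52 ± 0.166 (SE), with a 95% interval from 0.13 to 0.91, and did not pass (limma adjusted p = 0.301, unadjusted p = 0.0147). Only 1.82% of the tested genes had a larger upward log2 change, and 4.86% had a smaller p. The values rest on 398, 394 and 325 fragments outside pregnancy against 429, 521 and 622 at dpc8. Pooled, the ratio was 1.61 with a 95% interval from 1.49 to 1.74 (exact Clopper-Pearson), which covers counting error only. The log2 change kept its direction when library 3 of either group was left out, at 0.36 for the pregnant and 0.39 for the non-pregnant one. The biliary markers were ordered in the same way between the groups: their sum was 7906, 8566 and 6760 FPKM in non-pregnant libraries 1 to 3 and 9650, 9115 and 9280 FPKM in pregnant libraries 1 to 3. Of the 17 markers, 0 passed (lowest limma adjusted p = 0.279), and 9 were higher in pregnancy without overlap, against 9.9% of all tested genes. The log2 change was positive for 16 (median 0.18 over the list), against 44.75% of all tested genes. The other was Aqp1, at 110 FPKM in non-pregnant library 2 against 12.1 and 8.05 FPKM in non-pregnant libraries 1 and 3. The part of the biliary markers in the Slc10a2 values was not tested. The genes whose values lay closest to those of Slc10a2 over the 6 libraries, each centred on its own mean, were Cdh6, P4ha3 and Cxcl2, with root mean square differences of 0.06, 0.07 and 0.08 on the log2 scale. Cdh6, a cadherin, stood at 18.0, 16.8 and 13.4 FPKM outside pregnancy against 21.2, 22.7 and 27.7 FPKM in pregnancy.

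Downstream of uptake, the exporter subunits could not be followed. Slc51a (ENSMUSG00000035699, chr16:32474504-32487879, mm10) was hit by 4, 4 and 0 fragments outside pregnancy and by 0, 3 and 2 in pregnancy. Its pooled ratio of pregnant to non-pregnant was 0.714, with a 95% counting interval from 0.184 to 2.47. Slc51b (ENSMUSG00000053862, chr9:65412714-65422955, mm10) was hit by 3, 3 and 5 fragments outside pregnancy and by 0, 0 and 3 in pregnancy, with a ratio of 0.312 with an interval from 0.0558 to 1.18. A count of 0 allows up to 3 fragments, which for Slc51b is 0.120 to 0.167 FPKM in a single library, close to the values measured. Differences between the groups were therefore not detectable at this depth (exact permutation test, two-sided, p = 0.6 for Slc51a and p = 0.3 for Slc51b, where 3 against 3 libraries cannot go below 0.1). The receptor that drives this pair in the intestine was present in the same libraries: Nr1h4, which encodes FXR, stood at 13.2 ± 2.19 and 12.1 ± 1.51 FPKM (SD, n = 3 each), and its target Nr0b2, which encodes the repressor SHP, at 23.8 ± 3.86 and 18.4 ± 2.49 FPKM.

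Abcc3 and Abcc4, whose pumps are basolateral in hepatocytes, held most of the export transcripts. Where these pumps sit in biliary cells was not measured. Abcc3 (ENSMUSG00000020865, chr11:94343295-94392997, mm10) stood at 93.9, 105 and 79.3 FPKM in non-pregnant libraries 1 to 3 and at 71.5, 83.5 and 81.7 FPKM in pregnant libraries 1 to 3. The groups overlapped, since non-pregnant library 3 lay below pregnant libraries 2 and 3. The means were 92.8 ± 13.0 and 78.9 ± 6.48 FPKM (SD, n = 3 each), with a log2 change of -0.23 ± 0.120 (SE; limma adjusted p = 0.424) and a 95% interval from -0.50 to 0.05. The log2 change of Abcc3 was -0.13 when non-pregnant library 2, the one with the high endothelial markers, was left out. Abcc4 (ENSMUSG00000032849, chr14:118482692-118706219, mm10) stood at 10.7, 15.2 and 7.46 FPKM outside pregnancy against 11.4, 13.9 and 15.1 FPKM in pregnancy. The non-pregnant values of Abcc4 spanned the pregnant ones, with library 2 above and libraries 1 and 3 below all of them. The log2 change was 0.30 ± 0.220 (SE; limma adjusted p = 0.539), with a 95% interval from -0.21 to 0.81. Leaving out non-pregnant library 3 gave 0.06 and leaving out library 2 gave 0.53, and it passed in neither (limma adjusted p of 0.901 and 0.114). The genes closest to Abcc4 over the 6 libraries were Tmem88, Bmp6 and Tspan4, with root mean square differences of 0.05, 0.07 and 0.09 on the log2 scale. Bmp6, a ligand of the TGF-beta family, stood at 19.7, 25.6 and 13.4 FPKM outside pregnancy against 21.4, 23.8 and 24.2 FPKM in pregnancy.

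The balance of Abcc3 and Abcc4 was compared within each library. No ratio could pass its test, since an exact permutation p cannot go below 0.1 with 3 against 3 libraries. Abcc3 was 8.75, 6.94 and 10.6 times as abundant as Abcc4 per length in the non-pregnant libraries and 6.28, 5.99 and 5.42 times in the pregnant ones. All 3 pregnant ratios lay below all 3 non-pregnant ones. The mean log2 ratio was 3.11 ± 0.308 and 2.56 ± 0.108 (SD, n = 3 each), a difference of -0.55 (exact permutation test, two-sided, p = 0.1, the smallest the design allows, and 0.3 adjusted over 3 ratios). The difference lay between -0.71 and -0.40 when single libraries were left out. The ratio of Abcc3 to the apical pump Abcc2 was 62.5, 44.3 and 70.9 in non-pregnant and 47.9, 63.1 and 55.2 in pregnant libraries, and its groups overlapped (exact permutation p = 0.8, adjusted 0.8). A ratio within a library does not depend on the scaling of that library.

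**Figure D3:**
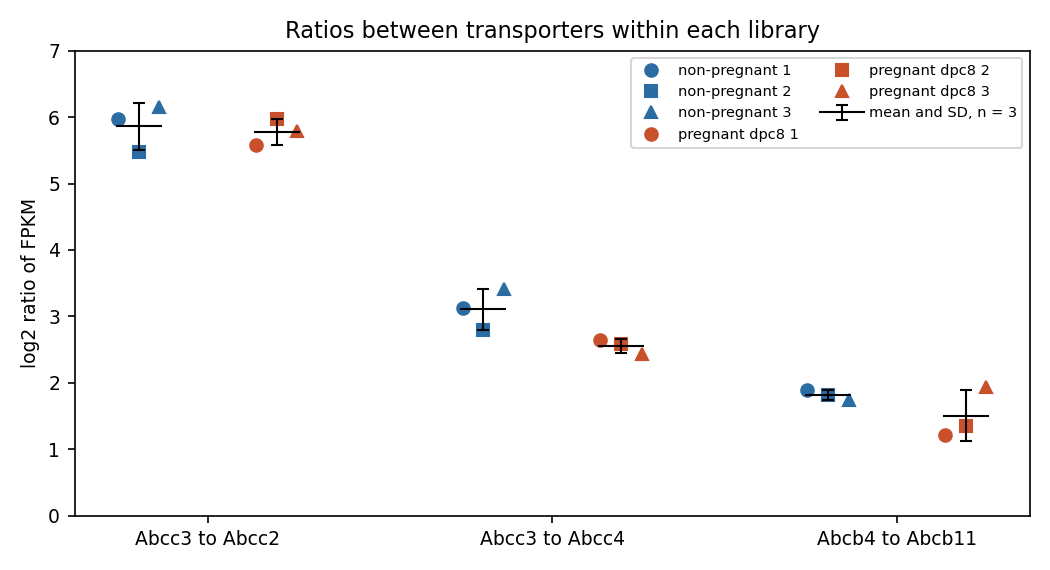
Log2 ratio of FPKM between pairs of transporters in each library, blue for non-pregnant and orange for pregnant, with the mean and SD of each group (n = 3). The pregnant ratios of Abcc3 to Abcc4 (mean 2.56) lie below the non-pregnant ones (mean 3.11), and the other pairs overlap.

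The apical pumps stood lower. Abcg2 (ENSMUSG00000029802, chr6:58584523-58695676, mm10) was at 2.40, 2.75 and 3.31 FPKM outside pregnancy against 3.11, 3.29 and 3.45 FPKM in pregnancy. The groups overlapped only through non-pregnant library 3. The log2 change was 0.17 ± 0.106 (SE; limma adjusted p = 0.475), with a 95% interval from -0.07 to 0.42. It was 0.09 when non-pregnant library 1 was left out and 0.26 when non-pregnant library 3 was. Abcg2 was the only transporter called in any of the fits run: with weights estimated for each library its log2 change was 0.29 (limma adjusted p = 0.0355), in a fit that called 1301 genes. Abcc2 (ENSMUSG00000025194, chr19:43782192-43840740, mm10) stood at 1.502, 2.38 and 1.12 FPKM outside pregnancy against 1.49, 1.32 and 1.48 FPKM in pregnancy. The pregnant values fell inside the non-pregnant range, whose spread was 0.645 FPKM against 0.0942 FPKM (SD, n = 3 each). The log2 change of Abcc2 was -0.11 ± 0.167 (SE; limma adjusted p = 0.776), with a 95% interval from -0.49 to 0.28, turned to 0.08 without non-pregnant library 2 and was -0.26 without non-pregnant library 3.

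**Figure D4:**
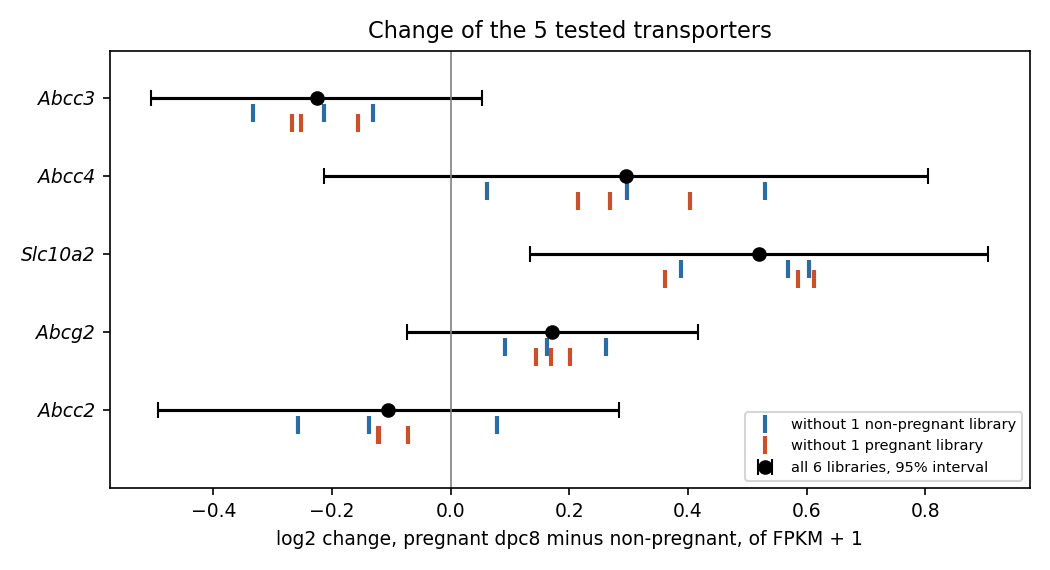
Log2 change of FPKM + 1 (pregnant minus non-pregnant) of the 5 tested transporters, with the 95% interval of the limma fit over 6 libraries in black and the values without 1 library as blue (non-pregnant) and orange (pregnant) ticks. The interval of Slc10a2 (0.13 to 0.91) does not reach 0 before adjustment, and the ticks of Abcc2 lie on both sides of 0.

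The genes of the hepatocyte canaliculus were low in both groups. Abcb4 (ENSMUSG00000042476, chr5:8893717-8959231, mm10) stood at 0.528, 0.793 and 0.499 FPKM outside pregnancy against 0.560, 0.642 and 0.501 FPKM in pregnancy, from 142, 225 and 165 against 140, 186 and 119 fragments. The groups overlapped throughout (exact permutation test, two-sided, p = 0.9). Abcb11 (ENSMUSG00000027048, chr2:69238282-69342616, mm10) stood at 0.142, 0.225 and 0.149 FPKM outside pregnancy against 0.241, 0.252 and 0.131 FPKM in pregnancy (exact permutation p = 0.6), from 83 fragments in the first group and 90 in the second. Their ratio, Abcb4 to Abcb11, was 3.71, 3.53 and 3.35 in non-pregnant and 2.33, 2.55 and 3.84 in pregnant libraries, with overlapping groups (exact permutation p = 0.4, adjusted 0.6). The basolateral uptake transporters of hepatocytes were as low: Slc10a1, which encodes NTCP, stood at 0.576 ± 0.122 and 0.577 ± 0.161 FPKM (SD, n = 3 each) and Slco1b2 at 0.152 ± 0.124 and 0.184 ± 0.0751 FPKM. How much of the Abcb11 and Abcb4 signal came from hepatocyte RNA was not tested.

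Gpbar1 (ENSMUSG00000064272, chr1:74278550-74279624, mm10) stood at 0.487, 0.308 and 0.185 FPKM outside pregnancy against 0.244, 0.301 and 0.919 FPKM in pregnancy. Pregnant library 3 lay above all others, and the remaining pregnant libraries lay within the non-pregnant range. From 32 and 42 fragments in all, the ratio of pregnant to non-pregnant was 1.499, and counting error alone gave it a 95% interval from 0.924 to 2.45 (exact permutation test, two-sided, p = 0.7). The log2 change, with a pseudocount of 0.1 FPKM, was 0.35 with all libraries and -0.14 without pregnant library 3. In mice Gpbar1 is also known from macrophages and sinusoidal endothelium. The macrophage markers summed to 183, 152 and 110 FPKM in pregnant libraries 1 to 3, and the part of either cell type in the Gpbar1 values was not tested.

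Several of the 10 genes shared their high and low libraries. Abcc2, Abcc3 and Abcc4 of the tested 5 had their highest value in non-pregnant library 2, the highest library for 15.6% of all tested genes. So did Abcb4, which was below the filter. Non-pregnant library 3 was the lowest for Slc10a2, Abcc2 and Abcc4 among the tested 5, as it was for 28.5% of all tested genes. It was also the highest library for 35.8% of all tested genes and for 0 of the tested 5. No other library had as large a share on either side. Below the filter it was the lowest for Abcb4 and Gpbar1, and Slc51a was at 0 there and in pregnant library 1. Non-pregnant library 2 was also the one with the high endothelial markers. Stab2, a scavenger receptor of sinusoidal endothelium, stood there at 46.8 FPKM, against 5.98 and 2.96 FPKM in non-pregnant libraries 1 and 3 and 3.11, 4.56 and 3.97 FPKM in the pregnant ones. The part of endothelial RNA in the transporter values was not tested.

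The genes around these transporters gave no call in 4 lists. Of the 10 tested genes of bile acid synthesis and conjugation 0 passed, with 6 above and 4 below 0 and a median log2 change of 0.06, against -0.02 over all tested genes. In this list groups did not overlap for 1 upward, Akr1d1, and 1 downward, Hsd17b4. Akr1d1, a steroid reductase of the pathway, stood at 1.45 ± 0.436 and 1.98 ± 0.0762 FPKM (SD, n = 3 each; limma adjusted p = 0.392), and Acox2, an oxidase that shortens the side chain, at 4.71 ± 1.95 and 6.42 ± 1.62 FPKM. Hsd17b4, which acts in the same peroxisomal shortening, stood at 32.8 ± 2.96 and 29.3 ± 0.865 FPKM. Cyp7a1, the rate-limiting enzyme of hepatocyte bile acid synthesis, was at 0.127 FPKM or less in every library.

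Among 12 other tested transporters 0 passed, and the log2 changes furthest below 0 were those of the sterol exporters Abca1 and Abcg1. Abcg1, which moves cholesterol to lipoproteins, stood at 3.29, 2.74 and 5.89 FPKM outside pregnancy against 1.20, 1.13 and 0.774 FPKM in pregnancy. The groups of Abcg1 did not overlap, which held for 2 of the 12, both lower in pregnancy. The log2 change of Abcg1 was -1.24 ± 0.219 (SE; limma adjusted p = 0.184). Abca1, which loads cholesterol onto apolipoprotein A-I, stood at 27.9, 8.10 and 52.2 FPKM outside pregnancy against 7.33, 8.40 and 6.31 FPKM in pregnancy. Its groups overlapped through non-pregnant library 2 (limma adjusted p = 0.325). Scarb1, the lipoprotein receptor SR-BI, was at 9.38 ± 0.947 and 7.89 ± 0.612 FPKM and the organic anion transporter gene Slco3a1 at 23.8 ± 8.71 and 33.3 ± 2.699 FPKM (SD, n = 3 each; limma adjusted p of 0.372 and 0.393).

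Of the 20 tested receptors and nuclear regulators 0 passed, with 5 above 0, 15 below and a median of -0.11. Of all tested genes, 44.75% lay above 0. Among the 20, groups did not overlap for 2 upward and 5 downward, the latter including Hnf4a and Rxra. Over all tested genes this held for 22.1% in either direction and 9.9% upward. Nr1h3, which encodes the oxysterol receptor LXRα, stood at 4.55, 4.43 and 3.37 FPKM outside pregnancy against 6.15, 5.46 and 5.09 FPKM in pregnancy (limma adjusted p = 0.301), without overlap. Hnf4a was at 27.1 ± 1.54 and 23.4 ± 1.22 FPKM and Rxra, the shared partner of FXR and LXR, at 61.2 ± 24.96 and 37.3 ± 5.17 FPKM (SD, n = 3 each; limma adjusted p of 0.342 and 0.354). Of the 13 tested genes of apical trafficking and scaffold 0 passed, with 7 above and 6 below 0. Here groups did not overlap for 1 upward, Ezr, and 3 downward, Rab11fip1, Stk11 and Rdx. Ezr, which encodes the apical linker ezrin, stood at 160, 155 and 124 FPKM outside pregnancy against 192, 171 and 217 FPKM in pregnancy (limma adjusted p = 0.304), without overlap. Rab11fip1, an effector of the recycling GTPase Rab11, stood at 13.4 ± 2.14 and 10.8 ± 0.163 FPKM and Stk11, which encodes the polarity kinase LKB1, at 43.7 ± 2.48 and 38.5 ± 1.22 FPKM (SD, n = 3 each; limma adjusted p of 0.352 and 0.364). Rdx, a relative of Ezr that encodes radixin, stood at 50.1 ± 4.10 and 43.6 ± 1.15 FPKM (SD, n = 3 each; limma adjusted p = 0.368).

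**Figure D5:**
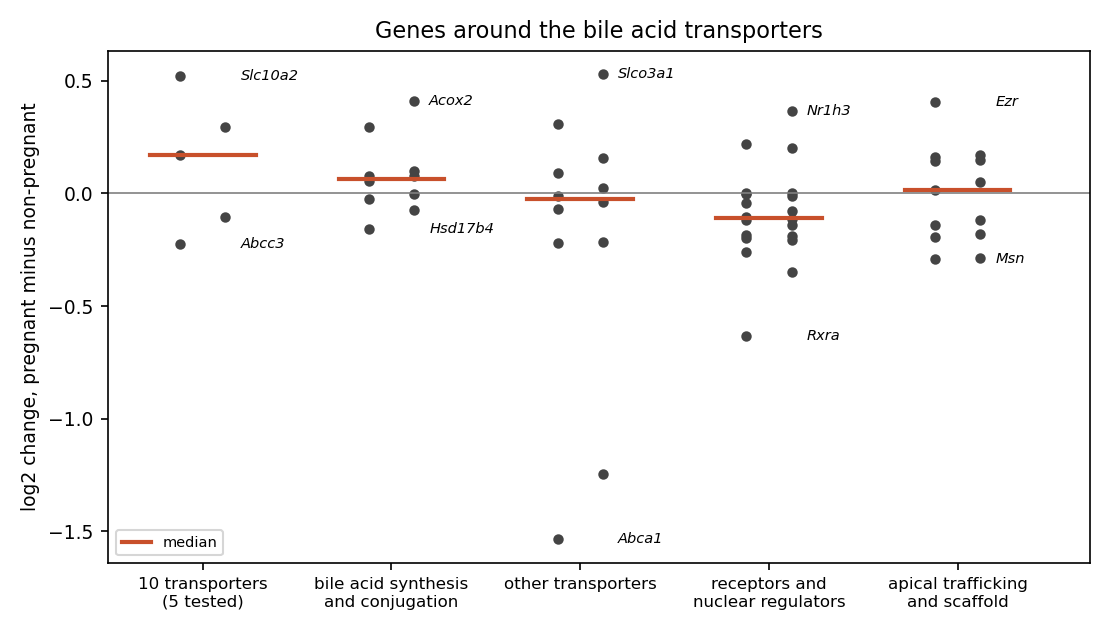
Log2 change (pregnant minus non-pregnant) of each tested gene in the 5 tested transporters and in 4 lists around them, with the median in orange and the highest and lowest gene named. No gene shown passed the test, and Abca1 and Abcg1 (-1.24) lie lowest.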

How the data were processed

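The authors deposited FPKM values for 21700 genes, 1 column per library. Build mm10 and the tools STAR 2.7.9a, HTSeq 0.13.5, DESeq2 1.30.1 and cutadapt 3.4 are named, without roles, per the submitters' processing notes. Values times the GENCODE vM21 exon length were, for 98.5% of values above 0, whole multiples of 1 step per library within 0.01, which gave the fragment numbers. Intervals and floors from them cover counting error only.

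Groups and replicate numbers came from the sample titles. Genes averaging 1 FPKM or more over the 6 libraries were tested two-sided as log2(FPKM + 1) with limma 3.58.1 (trended empirical Bayes, R 4.3.3), adjusted by Benjamini-Hochberg at 0.05. The pseudocount understates changes of low genes. Members below the filter had exact permutation tests on log2(FPKM + 0.1). The fit was tested on simulated data. Tables used Python 3.11.15 and scipy 1.17.1.

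The members and lists were chosen with earlier results of these data known. All 10 members are named, as are up to 4 genes of a pathway list by smallest p and of a cell type list by highest level. Krt19, Krt7, Epcam, Sox9, Spp1 and Alb are always named. Also named are the 3 genes closest in pattern to each of the 2 tested members that vary most. Nr1h4, Slc10a1, Slco1b2, Cyp7a1, C1qa, C1qc and Aqp1 were chosen after their values were seen.

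Alternatives were other pseudocounts (0.1 and 0.5 FPKM), filters, scalings, empirical Bayes settings, library weights, a replicate block, limma-voom on recovered fragments and leaving out each library.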

Additional observations from a re-analysis of the deposited data

How the results depend on the processing

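The count of genes past the threshold, 10, was 0 with no filter on low values (2258 at an unadjusted p under 0.05), 5 with robust empirical Bayes, 1301 with library weights, 1 with limma-voom on recovered fragments, and between 0 and 133 when single libraries were left out. The count of tested transporters past it was 0 in 16 of 17 alternatives (0 to 0 over the left-out libraries) and 1, Abcg2, with library weights. Slc10a2 kept its direction in all 17, with log2 changes from 0.31 to 0.68 and limma adjusted p from 0.105 to 0.738. So did Abcc3 (-0.33 to -0.13), Abcc4 (0.06 to 0.53) and Abcg2 (0.09 to 0.29, with library weights 0.29). The filters, robust empirical Bayes and the replicate block cannot alter a log2 change, so these settings did not test its direction. Abcc2 ranged from -0.26 to 0.079 and turned to 0.079 without non-pregnant library 2. The cause was not tested.

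Among the genes below the filter, leaving out single libraries gave log2 changes from -0.17 to 0.12 for Abcb4 (0.12 without non-pregnant library 2 and 0.0088 without pregnant library 3), from -0.14 to 0.65 for Gpbar1 (-0.14 without pregnant library 3) and from -0.28 to 0.0098 for Slc51a (0.0098 without pregnant library 1). They were 0.06 to 0.36 for Abcb11 and -1.39 to -0.68 for Slc51b. The log2 ratio of Abcc3 to Abcc2 differed by -0.27 to 0.064 (0.064 without non-pregnant library 3 and 0.021 without pregnant library 1), that of Abcc3 to Abcc4 by -0.71 to -0.40 and that of Abcb4 to Abcb11 by -0.53 to -0.17.

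Same-numbered libraries showed no shared deviation (correlations of 0.068, 0.019 and -0.138). With 3 libraries per group such values cannot exclude a pairing, and the sample titles do not say whether the numbers pair libraries. With the replicate block 13 genes were called, and Slc10a2 did not pass (limma adjusted p = 0.45). Its log2 change of 0.52 could not move, since each replicate number holds a single library of each group. For Abcc3 to Abcc4 the difference of -0.55 was fixed in the same way. Permuting its ratios within replicate numbers gave an exact p of 0.25, the smallest the block allows. At this depth a member with few fragments, such as Slc51a, Slc51b or Gpbar1, could not show a moderate difference.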
